A study of Mus musculus with 6 samples.

Results

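Cathepsins outside the granule protease cathepsin G are described here: *Ctsf*, *Ctsb*, *Ctsd*, *Ctsl*, *Ctss*, *Ctsz*, *Ctsh*, *Ctsc*, *Ctsk* and *Ctsw*, which make up 10 of the 54532 genes in the table. They were picked by gene name. *Ctsf* was chosen by its rise in the comparison described here, so its difference is given as a description with no test, and the other 9 were taken as its family with earlier results of these libraries known. RNA was sequenced from GFP+ leukemia cells sorted from mouse bone marrow, with replicates 1, 2 and 3 of *WT Phf6,RE9a* (WT) and replicates 11, 12 and 13 of *VC Phf6,RE9a* (KO), that is 3 libraries for each group. All 6 carried the floxed *Phf6* allele of male mice (*Phf6* fl/y) and a retrovirus with GFP and RE9a, a shortened form of the RUNX1-ETO fusion protein, which was put into fetal liver cells that then gave acute myeloid leukemia (AML) in recipient mice. The KO cells also carried *Vav1-Cre*, a Cre recombinase driven in blood-forming cells and their descendants, which deletes the floxed allele, and the WT cells had no Cre. The ages of the mice and the number of leukemias behind the libraries are not stated in the labels, so p-values measure only the spread between these libraries, which may be technical.

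Most cathepsins are proteases of the lysosome. They are made as inactive precursors, tagged with mannose 6-phosphate in the Golgi, carried to endosomes by receptors and cut to their active form there. *Ctsd* encodes an aspartic protease and the other 9 genes encode cysteine proteases of the papain family, whose activity outside the lysosome is held in check by cystatins and stefins. In blood cells, cathepsins degrade engulfed and autophagic protein, and cathepsin S and cathepsin L cut the invariant chain of MHC class II. Cathepsin C activates many of the serine proteases stored in the granules of neutrophils, mast cells and cytotoxic lymphocytes.

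Total counts per library ran from 15675358 to 16817994, and a count of 3, the most that a count of 0 leaves possible, equalled 0.175 to 0.204 CPM, for counting error only. CPM is the count scaled to the library's total after TMM normalization, and is used to compare 1 gene between libraries. *Phf6*, the targeted gene, had 67.8, 56.1 and 69.1 CPM in the WT libraries and 22.9, 18.3 and 19.7 CPM in the KO libraries, so each library went with its label (log2 difference -1.66, standard error 0.13). Of 14169 genes tested with edgeR's quasi-likelihood test at an adjusted p of 0.05, 21.5% were higher and 22.7% lower in KO cells, and the median log2 difference over them was 0.01. The myeloid leukemia cell markers *Kit*, *Spn* and *Cd34* were read in both groups. Of 6 such markers, 3 were lower (*Kit*, *Cd34* and *Fcgr3*) and 1 higher (*Itgam*) in KO cells, while *Spn* and *Ptprc* were not called. Summed markers of several other cell types differed between the groups, and *Kit* is also among the mast cell and basophil genes. The 12 mast cell and basophil genes (led by *Hdc*, *Cpa3* and *Cma1*) summed to 19470 to 30770 CPM in WT and 4978 to 5429 CPM in KO libraries, with 11 of 12 lower. The 14 neutrophil granule genes (led by *S100a9*, *Ngp* and *S100a8*) summed to 240, 193 and 597 CPM in WT libraries and to 4082, 2638 and 1147 CPM in KO libraries, with 14 of 14 higher. The 7 erythroid genes (led by *Hbb-bs*, *Hba-a1* and *Hbb-bt*) summed to 1430 to 2166 CPM and 4589 to 5250 CPM, with 7 of 7 higher. In bulk RNA, fewer cells of a type and less RNA per cell cannot be told apart.

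The bases upstream of the start are shown for *Ctsf*, the member that differed most, for *Ctsd*, the member with the highest level, and for *Ctsc* and *Ctss*, the members with the smallest adjusted p among the other 9. They come from RefSeq on GRCm38.p6, whose table matched 7 of the 10 members (not *Ctsb*, *Ctsh* and *Ctsw*). From the 250 bases before each RefSeq start, only those outside the gene's annotated span are printed, which leaves 214 bases of *Ctsf*, 39 of *Ctsd* and all 250 of the other pair, in the direction of transcription. Capitals mark CACGTG, the E-box that TFEB, TFE3 and MITF can bind, and GAGGAA, a core of sites bound by ETS factors such as PU.1. On the other strand, the second of these reads TTCCTC.
*Ctsf* (chr19:4854915-4855128, plus strand): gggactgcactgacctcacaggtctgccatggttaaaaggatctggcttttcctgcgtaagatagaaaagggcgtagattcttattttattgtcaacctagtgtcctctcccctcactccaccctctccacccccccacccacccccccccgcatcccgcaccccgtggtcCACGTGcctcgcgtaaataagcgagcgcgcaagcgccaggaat
*Ctsd* (chr7:142388039-142388077, minus strand): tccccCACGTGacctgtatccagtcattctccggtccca
*Ctsc* (chr7:88277835-88278084, plus strand): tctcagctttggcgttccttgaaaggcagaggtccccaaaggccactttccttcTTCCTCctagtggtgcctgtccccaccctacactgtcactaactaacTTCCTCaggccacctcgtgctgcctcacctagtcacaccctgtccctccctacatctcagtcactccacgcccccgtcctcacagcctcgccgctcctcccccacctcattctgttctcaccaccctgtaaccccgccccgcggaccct
*Ctss* (chr3:95526536-95526785, plus strand): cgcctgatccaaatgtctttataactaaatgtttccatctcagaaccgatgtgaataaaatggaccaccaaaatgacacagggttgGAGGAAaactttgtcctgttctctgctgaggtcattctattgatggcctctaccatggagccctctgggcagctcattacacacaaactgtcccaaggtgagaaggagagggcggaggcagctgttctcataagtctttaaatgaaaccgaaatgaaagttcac
In the window from 250 bases before to 50 bases after the start, CACGTG was found in 3 of 7 members, at -79 in *Ctsf*, at -245 and -98 in *Ctsd* and at -236 in *Ctsl*, where 7.15% of 32851 RefSeq promoters of the same length hold it. The second *Ctsd* match and the *Ctsl* match lie inside the genes' annotated spans and are not shown. GAGGAA was found on either strand in *Ctsc*, *Ctss* and *Ctsk*, that is in 3 of 7 members against 28.3% of promoters. TGTGGT, the core of RUNX1 sites, was in 0 of the 7 windows and in 16.8% of promoters, and *Ctsz* held none of the 3 motifs. No motif overlapped another, and a match in letters does not show that a factor binds there.

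*Ctsf* encodes cathepsin F, a papain-family endopeptidase with an unusually long propeptide that holds a cystatin-like domain. It lies on chromosome 19 at 4855129 to 4860912, plus strand (GRCm38), as a protein-coding gene with no overlapping gene. *Ctsf* had 58, 80 and 73 counts in the WT libraries and 1655, 2112 and 1411 counts in the KO libraries. These came to 3.77, 5.43 and 4.42 CPM against 97.7, 123 and 83.8 CPM. The lowest KO library was far above the highest WT library, and the spread within each group was small beside the gap. The means were 4.54 ± 0.838 (SD, n = 3) and 102 ± 19.9 CPM (SD, n = 3), a log2 difference of 4.48, or 22.4-fold. The fit gave a standard error of 0.20 and a 95% interval of 4.02 to 4.95. *Ctsf* was picked by these same values, so the interval does not allow for that choice and is no test. A larger log2 increase was fitted for 131 of the 14169 genes tested. The log2 difference stayed between 4.32 and 4.62 with any 1 library left out.

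**Figure D1:**
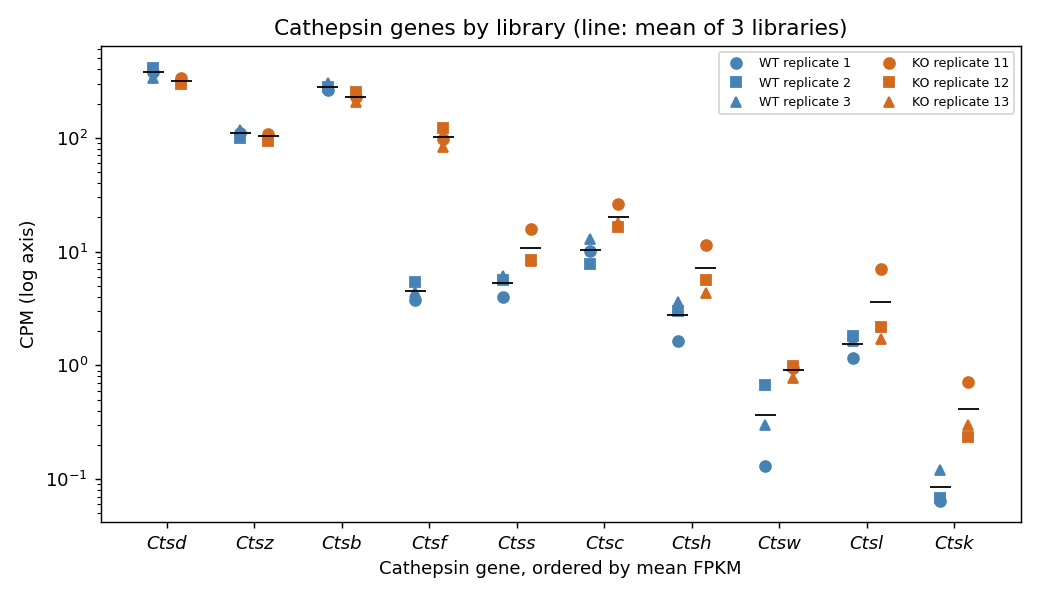
Level of each cathepsin gene in each library, in CPM on a log axis, with genes ordered by their mean FPKM. Blue points are WT and orange points KO libraries, and black lines are means of 3 libraries. *Ctsf* was at 4.54 CPM in WT and 102 CPM in KO cells on average, and replicate 11 (orange circle) was the highest point for *Ctsc*, *Ctss*, *Ctsh*, *Ctsl* and *Ctsk*.

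Levels of different genes were compared in FPKM, which divides by gene length. In WT cells, *Ctsd* was highest at 159 ± 16.7 FPKM (SD, n = 3), followed by *Ctsz* at 75.4 ± 6.47 and *Ctsb* at 46.3 ± 3.10 FPKM. *Ctss* was at 3.84 ± 0.780, *Ctsf* at 2.28 ± 0.414 and *Ctsc* at 1.75 ± 0.432 FPKM. The libraries of *Ctsf* and *Ctsc* overlapped, so their order could not be set. *Ctsh* (0.606 FPKM) overlapped *Ctsw* (0.298 FPKM), *Ctsw* overlapped *Ctsl* (0.236 FPKM), and *Ctsk* was lowest at 0.056 FPKM. In KO cells, *Ctsf* stood at rank 3 in place of rank 5, at 50.8 ± 10.2 FPKM (SD, n = 3), between *Ctsz* at 70.8 ± 5.12 and *Ctsb* at 37.5 ± 4.02 FPKM. The lowest *Ctsf* library (41.7 FPKM) and the highest *Ctsb* library (41.6 FPKM) were nearly equal. Below them, *Ctss* was at 7.84, *Ctsc* at 3.44, *Ctsh* at 1.57, *Ctsw* at 0.723, *Ctsl* at 0.550 and *Ctsk* at 0.269 FPKM, and here *Ctsw* overlapped *Ctsl* and *Ctsl* overlapped *Ctsk*.

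The FPKM values of the 10 genes summed to 287, 299 and 282 in WT libraries and to 324, 306 and 287 in KO libraries. The groups overlapped in this sum, with means of 289 ± 8.51 and 306 ± 18.2 FPKM (SD, n = 3). *Ctsf* made up 0.664%, 0.912% and 0.784% of the sum in WT and 15.1%, 20.2% and 14.5% in KO libraries. Without *Ctsf*, the sum was 285, 296 and 280 FPKM in WT and 275, 245 and 246 FPKM in KO libraries. Every KO library then lay below every WT library, by a narrow margin (275 against 280 FPKM). The gene left out is the one picked for its rise, so nothing is read from this order. *Ctsb*, *Ctsd* and *Ctsz* together held 96.9% ± 0.544 of the full sum in WT and 78.7% ± 2.80 in KO cells (SD, n = 3).

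**Figure D2:**
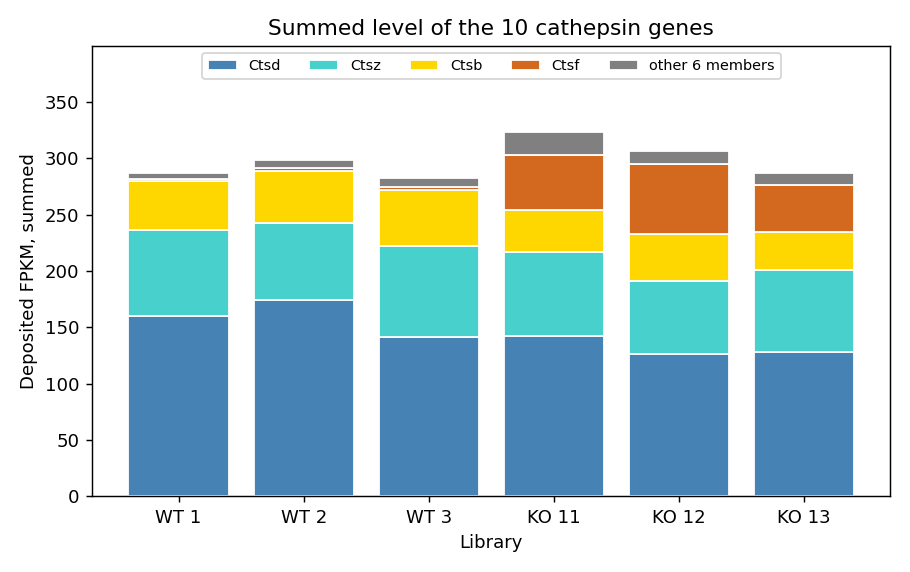
Deposited FPKM of the 10 cathepsin genes stacked by library, with *Ctsd*, *Ctsz*, *Ctsb* and *Ctsf* drawn apart and the other 6 genes pooled. The total ran from 282 to 299 FPKM in WT and from 287 to 324 FPKM in KO libraries, and *Ctsf* took 14.5% to 20.2% of it in the latter.

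Of the 9 members other than *Ctsf*, 8 passed the filter on low counts, 3 were called higher (*Ctsc*, *Ctss* and *Ctsh*) and 0 were called lower in KO cells by edgeR. At an unadjusted p under 0.05 there were 4 higher and 2 lower. DESeq2 also called 3 higher and 0 lower, while limma called 3 or 2 higher, depending on the pseudocount, and 1 lower. The shares called over all genes, 21.5% higher and 22.7% lower, stand beside these counts, and nothing is read from the counts because *Ctsf* and its family were picked in the same comparison. The 8 genes had a median log2 difference of 1.01, beside 0.01 over all genes tested, and *Ctsw* was among the 8 only through its KO counts. Counted in CPM over all 10 members, every KO library was above every WT library in 6 genes (*Ctsf*, *Ctsc*, *Ctss*, *Ctsh*, *Ctsw* and *Ctsk*) and below in 1 (*Ctsb*), and the groups overlapped in 3. Of the 9 members tested, *Ctsf* included, KO libraries lay above all WT libraries in 5 and below in 1. Over all genes tested, 28.9% had KO libraries above and 28.4% below all WT libraries, and nothing is read from these counts either.

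The abundant members *Ctsd*, *Ctsb* and *Ctsz* had small log2 differences, from -0.30 to -0.08. *Ctsd* encodes cathepsin D, the main aspartic protease of the lysosome, and lies on chromosome 7 at 142375911 to 142388038, minus strand. It had 376, 414 and 336 CPM in WT and 339, 299 and 307 CPM in KO libraries, and KO replicate 11 lay above WT replicate 3. The log2 difference was -0.25 with a standard error of 0.11 and a 95% interval of -0.50 to -0.01 (adjusted p = 0.0876, edgeR's quasi-likelihood test), and it was called lower only when WT replicate 3 was left out, at -0.33 (adjusted p = 0.0300). *Ctsd* shares 6757 bases of its span with *Gm49369* on the same strand, which had 0 counts in all 6 libraries, and reads in the shared bases cannot be told apart.

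*Ctsb* encodes cathepsin B, an endopeptidase that also removes dipeptides from the carboxyl end, and lies on chromosome 14 at 63122462 to 63145923, plus strand. It had 263, 281 and 303 CPM in WT and 228, 254 and 207 CPM in KO libraries. All 3 KO libraries were below all 3 WT libraries by a small margin. The log2 difference was -0.30 with a standard error of 0.10 and a 95% interval of -0.54 to -0.06, and the adjusted p of 0.0502 from edgeR's quasi-likelihood test fell just outside the threshold of 0.05. With DESeq2's size factors in place of TMM it was -0.31 (adjusted p = 0.0439), and it also passed under limma on either pseudocount and without KO replicate 12. Its last 774 bases overlap *Fdft1* on the opposite strand. *Fdft1* had 959, 779 and 1354 counts in WT and 707, 802 and 750 counts in KO libraries. Strandedness is not given, and the part of *Fdft1* reads in the *Ctsb* values was not tested.

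*Ctsz* encodes cathepsin Z (also called X), a carboxypeptidase, and lies on chromosome 2 at 174427493 to 174439039, minus strand. It had 110.4, 99.3 and 118 CPM in WT and 109, 94.3 and 107 CPM in KO libraries, with the groups overlapping throughout. Its log2 difference was -0.08 with a standard error of 0.10 and a 95% interval of -0.31 to 0.15 (adjusted p = 0.543, edgeR), which leaves room for a fall of up to 0.31 or a rise of up to 0.15 on the log2 scale.

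*Ctsc*, *Ctss* and *Ctsh* rose by 1.97-fold, 2.05-fold and 2.60-fold from low levels. *Ctsc* encodes cathepsin C, the dipeptidyl peptidase that activates granule serine proteases, on chromosome 7 at 88278085 to 88310888, plus strand. It had 10.2, 7.73 and 12.8 CPM in WT and 26.5, 16.4 and 17.9 CPM in KO libraries. On the log2 scale it differed by 0.98 with a standard error of 0.25 (adjusted p = 0.0158, edgeR), higher in 3 of 3 KO libraries. *Ctsc* spans the lincRNA *Gm26522* on the opposite strand, which had at most 16 counts in a library.

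*Ctss* encodes cathepsin S, an endopeptidase of antigen-presenting cells that stays active at neutral pH, on chromosome 3 at 95526786 to 95556403, plus strand. It had 4.02, 5.63 and 6.11 CPM in WT and 15.7, 8.39 and 8.26 CPM in KO libraries. The groups did not overlap, and replicate 11 was the highest by a wide margin. *Ctss* differed by 1.04 on the log2 scale with a standard error of 0.31 (adjusted p = 0.0301, edgeR). It spans the pseudogene *Hmgb1-ps5*, which had at most 2 counts in a library. *Ctsh* encodes cathepsin H, an aminopeptidase, on chromosome 9 at 90054152 to 90076089, plus strand. It had 1.62, 2.99 and 3.63 CPM in WT and 11.5, 5.65 and 4.34 CPM in KO libraries, with replicate 11 again highest and replicate 13 close to the highest WT library. For *Ctsh* the log2 difference was 1.38 with a standard error of 0.45 (adjusted p = 0.0384, edgeR).

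Each of these 3 calls depended on 1 or more single libraries. Without KO replicate 11, *Ctsc* was at 0.75 (adjusted p = 0.0582), *Ctss* at 0.67 (adjusted p = 0.102) and *Ctsh* at 0.87 (adjusted p = 0.137) in the edgeR fit on 5 libraries. Then 0 of the members other than *Ctsf* were called higher, with 2 at an unadjusted p under 0.05. When WT replicate 1 was left out, *Ctss* (0.87, adjusted p = 0.0901) and *Ctsh* (1.11, adjusted p = 0.104) also missed the threshold. Without WT replicate 2, *Ctss* (1.08, adjusted p = 0.0545) and *Ctsh* (1.43, adjusted p = 0.0716) did so too. *Ctsh* further missed it without KO replicate 12 (1.53, adjusted p = 0.0591) and with limma on log2(FPKM + 1), at 0.64 (adjusted p = 0.0610), or on log2(FPKM + 0.1), at 1.19 (adjusted p = 0.0514).

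*Ctsl*, *Ctsw* and *Ctsk* were read at low levels. *Ctsl* encodes cathepsin L, a broad endopeptidase, on chromosome 13 at 64359337 to 64370890, minus strand. It had 18, 27 and 27 counts in WT and 118, 37 and 29 counts in KO libraries, or 1.17, 1.83 and 1.63 CPM against 6.97, 2.16 and 1.72 CPM. The groups overlapped, and the mean of the KO group was set largely by replicate 11. The log2 difference was 1.22 with a 95% interval of -0.07 to 2.52 (adjusted p = 0.113, edgeR), and it was 0.33 without that library (adjusted p = 0.526). *Ctsl* spans the antisense gene *Gm47123* and the pseudogene *Gm49230*, both at 0 counts in all 6 libraries.

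*Ctsw* encodes cathepsin W, a papain-family protein known from natural killer cells and cytotoxic T cells, on chromosome 19 at 5465240 to 5468498, minus strand. It had 2, 10 and 5 counts in WT and 16, 17 and 13 counts in KO libraries, and it passed the filter on low counts only through the KO group. The log2 difference was 1.28 with a standard error of 0.53 (adjusted p = 0.0868, edgeR), and it passed the threshold with limma on log2(FPKM + 1), at 0.42 (adjusted p = 0.0405), and without WT replicate 2, at 2.0 (adjusted p = 0.0258). The 11 T and NK cell markers (led by *Nkg7*, *Cd2* and *Cd8a*) summed to 2.38 to 3.57 CPM in WT and to 11.5, 7.46 and 5.41 CPM in KO libraries. Only *Nkg7* among them passed the filter, with 2.60, 1.02 and 2.06 CPM in WT and 5.31, 4.66 and 2.97 CPM in KO libraries. The others had at most 25 counts in a library, and *Cd3d* had 3, 2 and 2 against 6, 1 and 1 counts. The part of these markers in the *Ctsw* values was not tested. *Ctsk* encodes cathepsin K, the collagen-degrading protease of osteoclasts, on chromosome 3 at 95499256 to 95509362, plus strand. It had 1, 1 and 2 counts in WT and 12, 4 and 5 counts in KO libraries and did not pass the filter. The ratio of 21 to 4 counts, scaled by library size, was 4.81 with an exact 95% interval of 1.62 to 19.3 for counting error only. Of the 7 osteoclast markers, *Acp5* and *Mmp9* were higher in KO cells (all 7 summed to 63.2 to 131 against 421 to 548 CPM), while *Dcstamp*, *Ocstamp* and *Calcr* had 0 counts in all 6 libraries. *Acp5* and *Mmp9* made up most of that sum. *Atp6v0d2* went the other way without a call (log2 difference -1.12, adjusted p = 0.167, edgeR), and *Oscar* had at most 3 counts in a library.

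Replicate 11 stood apart in the same members. Its CPM was 3.59 times the mean of KO replicates 12 and 13 for *Ctsl*, 2.67 times for *Ctsk*, 2.31 times for *Ctsh*, 1.89 times for *Ctss* and 1.54 times for *Ctsc*. For *Ctsf*, *Ctsb*, *Ctsd*, *Ctsz* and *Ctsw* the same ratio lay between 0.945 and 1.12. Over all genes tested it had a median of 0.995 and exceeded 1.5 in 7.40% of genes. The summed neutrophil granule markers were also highest in replicate 11 (4082 CPM), and within the WT group both they (597 CPM) and the levels of *Ctsc*, *Ctss* and *Ctsh* were highest in replicate 3. The order did not hold throughout in either group. In the KO group *Ctsc* was higher in replicate 13 than in replicate 12. In the WT group *Ctss*, *Ctsh* and *Ctsl* were higher in replicate 2 (marker sum 193 CPM) than in replicate 1 (240 CPM). The 14 macrophage markers (led by *Cd68*, *Csf1r* and *Mrc1*) summed to 32.3, 43.6 and 34.6 CPM in WT and 60.2, 55.5 and 47.3 CPM in KO libraries, with 2 of 10 tested called higher (*Cd68* and *Mertk*) and with *Vsig4* and *Timd4* at no more than 3 counts in any library. Over all genes tested, 21.5% were called higher. *Cd163* went the other way without a call (log2 difference -0.79), and *Marco* had 5, 4 and 1 counts in WT and 0 in KO libraries. A sum of 4 B cell markers, among them *Pax5* and *Cd79b*, came to 1.04, 0.475 and 0.908 CPM in WT and 18.4, 18.1 and 6.42 CPM in KO libraries. The part of these cell types in the values of *Ctsc*, *Ctss*, *Ctsh*, *Ctsl* and *Ctsk* was not tested.

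**Figure D3:**
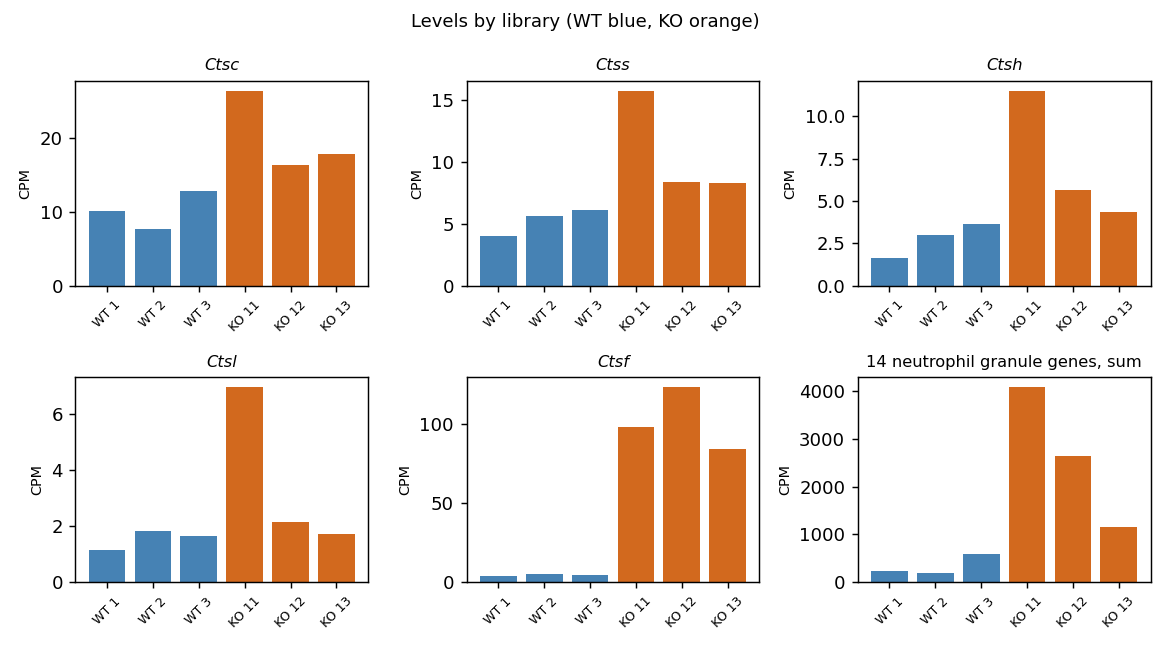
CPM in each library for *Ctsc*, *Ctss*, *Ctsh*, *Ctsl* and *Ctsf* and for the sum of 14 neutrophil granule genes, with WT bars in blue, KO bars in orange and all axes from 0. KO replicate 11 is the highest bar in every panel except that of *Ctsf*, where replicate 12 is highest at 123 CPM.

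Other genes that carry the name cathepsin or its fold were counted as a list of 15, of which 5 were tested, 3 were higher and 0 lower in KO cells by edgeR, with 0 lower also at an unadjusted p under 0.05, by DESeq2 and by limma. The median log2 difference of the 5 was 0.57. Beside these counts stand 21.5% higher and 22.7% lower over all genes tested, and nothing is read from them about the list. *Tinagl1*, a secreted relative of the papain family without protease activity, had 5, 8 and 7 counts in WT and 406, 293 and 464 counts in KO libraries, a log2 difference of 5.71 with a standard error of 0.30, and passed the filter only through the KO group. *Ctse*, an intracellular aspartic protease, rose from 63.7 ± 1.75 to 94.6 ± 6.35 CPM (SD, n = 3), and *Ctsg*, the granule serine protease, rose from 7.0 ± 1.26 to 19.2 ± 8.97 CPM (SD, n = 3). *Ctsa*, a serine carboxypeptidase, and *Ctso*, a papain-family member, had log2 differences of -0.23 and -0.18 and missed the threshold. The other 10, most of them genes of the rodent placenta, had no more than 3 counts in any library.

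Of 27 inhibitors of cysteine cathepsins listed, 25 were in the table and 8 were tested, with 2 higher, 3 lower and 3 not called, and a median log2 difference of 0.29. These counts stand beside 21.5% higher and 22.7% lower over all genes tested, and nothing is read from them about the list. *Cst7* encodes cystatin F, a lysosomal cystatin that inhibits cathepsin C. It had 126, 85.6 and 118 CPM in WT and 44.0, 42.0 and 53.5 CPM in KO libraries, without overlap, a log2 difference of -1.24 with a standard error of 0.16 (adjusted p = 0.000843, edgeR). *Cstb*, the cytosolic stefin B, had 35.1, 30.3 and 29.8 CPM against 19.4, 17.2 and 18.6 CPM, a log2 difference of -0.79 with a standard error of 0.12 (adjusted p = 0.00158, edgeR). *Ctla2a*, which resembles the propeptide of cathepsin L and inhibits that enzyme, had 101, 279 and 82.4 CPM in WT and 10.6, 33.3 and 6.42 CPM in KO libraries. Its log2 difference was -3.19 (adjusted p = 0.00773, edgeR) and was -2.46 without WT replicate 2 and -4.17 without KO replicate 12, the highest library of each group. *Ctla2b*, a close copy that can share its reads, had at most 36 counts.

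*Cst6*, encoding cystatin E/M, had 7, 3 and 8 counts in WT and 23, 17 and 33 counts in KO libraries, a log2 difference of 1.88 (adjusted p = 0.0122, edgeR). It passed the filter on low counts only through the KO group. *Gm5483*, of the stefin A family, had 4, 6 and 19 counts against 69, 40 and 17 counts, which overlapped. It too passed the filter only through the KO group, and it differed by 2.0 on the log2 scale (adjusted p = 0.0422, edgeR). It missed the threshold without WT replicate 1 (1.63), WT replicate 2 (1.77), KO replicate 11 (1.44) or KO replicate 12 (2.04), and was 2.86 without WT replicate 3. The stefin A genes are near-identical copies whose reads may be split between them, so *Gm5483* and *Stfa2l1* are uncertain. *Cst3*, the secreted cystatin C, was at 87.9 ± 17.5 and 97.4 ± 4.66 CPM (SD, n = 3), *Serpina3g*, a serpin that inhibits cysteine cathepsins, was at 239 ± 61.5 and 321 ± 43.8 CPM, and neither passed the threshold, nor did *Stfa2l1* with a log2 difference of 1.59.

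Genes that deliver cathepsins to the lysosome or mature them were tested in full, with 5 of 11 higher, 2 lower and 4 not called, and a median log2 difference of 0.20. The shares over all genes tested were 21.5% higher and 22.7% lower, and nothing is read from the counts about this list. *Gnptab* encodes the catalytic subunits of the enzyme that starts the mannose 6-phosphate tag. It had 137, 118 and 111 CPM in WT and 23.7, 24.7 and 23.2 CPM in KO libraries, a log2 difference of -2.36 with a standard error of 0.11 (adjusted p = 1.92e-05, edgeR), or 5.12-fold lower. *Gnptg*, for the third subunit of that enzyme, had a log2 difference of 0.32 (adjusted p = 0.0441, edgeR) that missed the threshold under 8 alternatives. *Lgmn* encodes legumain, which cuts several cathepsins to their mature form on the carboxyl side of asparagine. It had 1.56, 3.60 and 2.06 CPM in WT and 9.86, 19.8 and 9.39 CPM in KO libraries, a log2 difference of 2.44 with a standard error of 0.42 (adjusted p = 0.00283, edgeR).

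The receptor genes differed from each other in level. *M6pr*, the cation-dependent mannose 6-phosphate receptor, was at 349 ± 31.1 and 401 ± 8.38 CPM (SD, n = 3) and missed the threshold. *Igf2r*, the cation-independent receptor, rose from 0.390, 1.02 and 0.545 CPM to 5.14, 4.31 and 1.72 CPM, a log2 difference of 2.51 (adjusted p = 0.00682, edgeR), and passed the filter on low counts only through the KO group. *Sort1* encodes sortilin, a receptor that carries some lysosomal proteins without the tag, and rose from 3.77, 3.87 and 6.48 CPM to 20.2, 16.9 and 7.37 CPM, a log2 difference of 1.65 (adjusted p = 0.0126, edgeR). In KO cells both followed the order of the summed neutrophil granule markers (replicate 11, then 12, then 13). In WT cells *Sort1* was highest in replicate 3, as was the marker sum (597 CPM), and was nearly equal in replicates 1 and 2. *Igf2r*, at only 6, 15 and 9 counts in the WT libraries, was highest in replicate 2, where the marker sum was lowest (193 CPM). The part of these markers in the values was not tested. Among the adaptors that load these receptors into vesicles, *Gga1* rose by 0.53 on the log2 scale, while *Gga2* (-0.25) and *Gga3* (0.19) did not pass the threshold. *Psap*, for prosaposin, which binds procathepsin D, fell from 428 ± 31.9 to 322 ± 35.0 CPM (SD, n = 3; -0.41 on the log2 scale), a call lost without KO replicate 13 (-0.33, adjusted p = 0.0703).

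**Figure D4:**
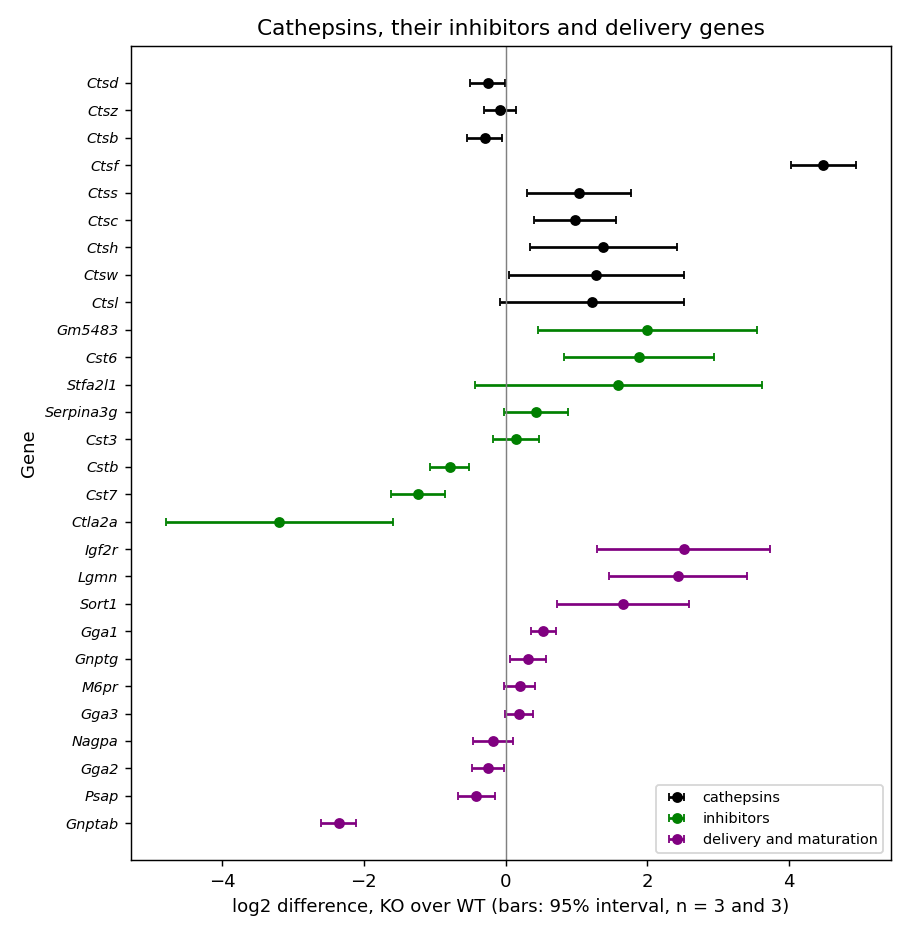
Log2 difference between KO and WT cells for the 9 tested cathepsins (black), 8 inhibitors (green) and 11 delivery and maturation genes (purple), with bars for the 95% interval of the edgeR fit (n = 3 and 3). *Ctsf* lies at 4.48, *Ctsd*, *Ctsz* and *Ctsb* lie between -0.30 and -0.08, and *Gnptab* lies at -2.36. The bar of *Ctsf* does not allow for the choice of that gene by its rise.

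Of 4 transcription factors that bind E-boxes of lysosomal genes, 0 were higher and 2 lower by edgeR, with 1 higher at an unadjusted p under 0.05 and 0 higher by DESeq2 and limma. Their median log2 difference was -0.17. Among all genes tested, edgeR called 21.5% higher and 22.7% lower, and nothing is read from the counts of these 4. *Mitf*, which also acts in mast cells, had 194, 129 and 121 CPM in WT and 70.8, 61.2 and 71.1 CPM in KO libraries, a log2 difference of -1.13 with a standard error of 0.18 (adjusted p = 0.00210, edgeR). *Tfeb* fell from a mean of 15.5 ± 1.80 CPM to one of 11.2 ± 1.08 CPM (SD, n = 3), a log2 difference of -0.47 (adjusted p = 0.0490, edgeR) whose call was lost without any 1 of 5 of the libraries, all but WT replicate 3. *Tfe3* (0.13) and *Tfec* (1.02) did not pass the threshold. The summed mast cell and basophil markers fell beside *Mitf*, and their part in its difference was not tested.

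The serine proteases listed as activated by cathepsin C went both ways, with 4 of 9 tested higher and 5 lower and a median log2 difference of -5.64. Over all genes tested, 21.5% were higher and 22.7% lower, and nothing is read from the counts about the list. Whether cathepsin C activates each listed protease, the tryptases *Tpsb2* and *Tpsab1* included, was not checked. The 4 that rose were *Elane*, *Prtn3*, *Ctsg* and *Prss57*, all of neutrophil granules, with log2 differences from 1.45 to 2.33. *Elane* was at 2.95 without WT replicate 3, and the call of *Prss57* (1.47) was lost without WT replicate 1 or 2 or KO replicate 11 or 12. *Prss57* passed the filter on low counts only through the KO group, and *Gzmb* and *Tpsb2* only through the WT group. The 5 that fell were the mast cell proteases *Cma1*, *Mcpt4*, *Tpsb2* and *Tpsab1* and the granzyme *Gzmb*. *Cma1*, for mast cell chymase, fell from 3631 ± 1095 to 72.7 ± 17.6 CPM (SD, n = 3). *Gzmb* had 717, 166 and 186 CPM in WT and 1.54, 0.874 and 0.356 CPM in KO libraries, a log2 difference of -8.58 that was -7.57 without WT replicate 1, while *Mcpt4* moved from -6.04 to -5.33 without that library. *Tpsb2* had 3407, 3949 and 2305 CPM against 0.413, 50.9 and 2.14 CPM. Its log2 difference of -7.49 became -11.29 without KO replicate 12, and that of *Tpsab1* moved from -6.27 to -7.75. These tryptase genes are close copies and can share reads. *Elane*, *Prtn3* and *Ctsg* are also among the neutrophil granule markers, and the 4 mast cell proteases among the mast cell markers, so these counts are not separate from those sums.

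Of 9 genes of MHC class II antigen processing, in which *Ctss* and *Ctsl* act, 8 were tested and 0 were called in either direction by edgeR, with 1 higher and 0 lower at an unadjusted p under 0.05. DESeq2 called 1 higher (*Ifi30*, at 0.71) and limma called 0. The median log2 difference of the 8 was 0.48. The shares that edgeR called over all genes tested were 21.5% higher and 22.7% lower, and nothing is read from the counts of the 8. *Cd74*, the invariant chain, was at 19.6 ± 5.48 and 23.1 ± 7.57 CPM (SD, n = 3), *Ifi30*, the lysosomal thiol reductase, at 18.5 ± 8.31 and 30.4 ± 4.77 CPM, *H2-Ab1* at 4.21 ± 2.11 and 8.33 ± 3.01 CPM and *H2-Aa* at 3.71 ± 2.49 and 7.03 ± 2.46 CPM. Without WT replicate 3, *Ifi30* (1.14), *H2-Aa* (1.60) and *H2-Eb1* (1.36) were called higher. The part of the B cell and macrophage markers in these values was not tested.

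The genes whose 6 centred log2 CPM values lay nearest to those of *Ctsf* by Euclidean distance were *Magi1*, *Slc22a21*, *Klf8*, *1700048O20Rik* and *Fkbp9*. *Fkbp9*, for a prolyl isomerase of the endoplasmic reticulum, had 4.48, 5.77 and 6.35 CPM in WT and 84.9, 110 and 72.9 CPM in KO libraries, with the same order of libraries as *Ctsf* within the KO group. *Slc22a21* had 1, 2 and 2 counts against 99, 113 and 98 counts. *Magi1*, *Klf8* and *1700048O20Rik* had 0 counts in all 3 WT libraries. The log2 CPM values were taken with a prior count of 2, which sets the WT values of such genes and shrinks their differences. The fitted log2 differences were 8.21 for *Magi1*, 8.59 for *Klf8*, 8.72 for *1700048O20Rik* and 5.73 for *Slc22a21*, all larger than the 4.48 of *Ctsf*. That of *Fkbp9* was 4.01. The distances of the 5 genes from *Ctsf* ran from 0.478 to 0.652, over 6 libraries that fall into 2 groups, so the likeness is a description only.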

How the data were processed

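RNA-sequencing of sorted GFP+ *WT Phf6,RE9a* (WT) and *VC Phf6,RE9a* (KO) AML cells was read from a table of 54532 Ensembl genes. It holds raw counts per gene as the authors deposited them, and deposited FPKM values computed from the counts, the gene length and a scaled library size. Their DESeq2 comparison columns were not used. The submitters' processing notes name Bowtie 0.12.0 and mm8, but the deposited coordinates match GENCODE M21 (GRCm38) in start and end for 98.33% of 54409 shared identifiers and for 8 of 10 members (not *Ctsf* and *Ctsw*), so they are given as GRCm38. The counting tool, annotation release and strandedness are not given in the sources used here, so overlapping genes are uncertain.

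In R 4.3.3, genes were filtered with filterByExpr of edgeR 4.0.16, scaled by TMM (factors from 0.917 to 1.07) and compared with the quasi-likelihood test over all 14169 genes left, with Benjamini-Hochberg adjustment and a threshold of 0.05. The standard error is the log2 difference divided by the square root of F. CPM used TMM-scaled library sizes. The script was tested on simulated data. Alternatives were DESeq2 1.42.0, RLE size factors, no filter on counts, a minimum of 10 counts in each library, limma 3.58.1 on log2(FPKM + 1) and on log2(FPKM + 0.1), and each library left out. Motifs were searched on both strands in Python 3.11.15.

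The members and lists were chosen with earlier results of these data known. Besides the members and *Phf6*, the text names in each pathway list the 3 top genes by level, the top 3 by p, every inhibitor tested, the 3 highest genes of each marker list and the 5 genes nearest to *Ctsf*; further genes were named after their values were seen. 1 marker gene is not reported here, and the B cell sum was taken without it, a choice made after the values were seen. Protein sequences were not analysed here.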

Additional observations from a re-analysis of the deposited data

How the results depend on the processing

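The log2 difference of *Ctsf* was 4.48 and lay between 3.97 (limma on log2(FPKM + 1)) and 4.62 under the 12 alternatives. Over the tested members, 90 values kept their direction and side of the threshold, 10 lost a call and 7 gained one, and 0 reversed. The 90 include every value of *Ctsf*, which was picked for its rise in this comparison, so they are no test of that gene. The count of members other than *Ctsf* called higher (3) ranged from 0 to 3 with 1 library left out, being 0 without KO replicate 11 and 1 without WT replicate 1. The count called lower (0) was 1 with RLE, 1 with either limma pseudocount and 0 to 1 with 1 library left out. With at least 10 counts in every library, inhibitors higher fell from 2 to 0 and serine proteases lower from 5 to 3, as *Cst6*, *Gm5483*, *Gzmb* and *Tpsb2* were then not tested. All 4 regulators were still tested, with 1 higher in place of 0 (*Tfec*) and 1 lower in place of 2. Limma on log2(FPKM + 1) gave 1 inhibitor higher and, like log2(FPKM + 0.1) and no count filter, 1 regulator lower. DESeq2 gave 1 MHC class II gene higher. With 1 library left out, inhibitors higher ranged from 1 to 3, delivery genes lower from 1 to 3, regulators higher from 0 to 1, regulators lower from 1 to 2 and MHC class II genes higher from 0 to 3. Small differences reversed in *Cd74* (-0.016 without KO replicate 11; range to 0.48), *H2-DMa* (-0.12 without KO replicate 11; range to 0.28) and *Ciita* (-0.17 and -0.20 without WT replicate 1 or KO replicate 11; range to 0.42). For the other changes, the cause was not tested. No paired analysis was possible because the groups share no replicate numbers. Depth limits *Ctsk*, *Ctsw* and *Ctsl*, at 1 to 27 counts in WT libraries.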
